A study of Mus musculus with 12 samples.

Results

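The genes described here encode the proteins of the mitochondrial respiratory chain and ATP synthase, 111 of the 40690 gene identifiers measured in right atrial RNA of adult mice. They were chosen by gene symbol, with no measured value in the rule, although the set itself was picked with earlier results of these data known. Protein-coding genes whose symbol begins with Nduf, Sdh, Uqcr, Cox4 to Cox8 or Atp5, or with mt-, were taken along with Cyc1 and Cycs, and Ndufa4l2 was left out. Of the 111, 98 lie in the nuclear genome and 13 in the mitochondrial genome. The name rule also takes in 12 assembly factors (Ndufaf and Sdhaf genes) and a few neighbours of the chain such as Cox7a2l, Atp5s and Atp5sl.

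The respiratory chain passes electrons from NADH and succinate through complexes I and II to ubiquinone, then through complex III and cytochrome c to complex IV, which reduces oxygen. Complexes I, III and IV pump protons across the inner mitochondrial membrane, and ATP synthase, also called complex V, uses that gradient to make ATP. Most subunits are encoded in the nucleus and imported. The mitochondrial genome encodes a small set of core subunits of complexes I, III, IV and V, so the complexes are built from transcripts of 2 genomes. Heart muscle depends on this machinery for contraction, and it carries muscle isoforms of several complex IV subunits alongside the ubiquitous ones.

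The study compared 6 right atria of littermate controls with 6 of iNICD mice, the genotype in which Notch signalling was switched on. Mice of both genotypes, at 2 to 3 months of age, ate doxycycline chow for 3 weeks and were sampled while still on it. Doxycycline is an antibiotic known to inhibit translation by mitochondrial ribosomes, so its presence in both groups is a shared condition, and no group without it was analysed here. The promoter that drives the transgene, the strain and the sex are not given in the labels, and nothing says beyond separate atrial samples whether each library came from a separate animal. The p-values therefore describe the spread between these samples.

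Levels are given in CPM, the reads of a gene scaled to the library total, and depth ran from 12015650 to 22716190 gene-assigned reads. Fold changes are iNICD over control on the log2(CPM + 0.5) scale with the standard error (SE) of the fit. A gene was called when limma's adjusted p (Benjamini-Hochberg over the 14336 genes that reached 1 CPM in 6 or more of the 12 libraries) was under 0.05. Notch1, which marks the genotype, ranged from 192 to 293 CPM in the controls and from 3064 to 5358 CPM in iNICD, so every library carried the level of its label. Cardiomyocyte markers were the dominant ones, with a summed level of 155991 to 161563 CPM over 10 genes in the controls. Some libraries stood apart. The RNA Gm42418 was at 20234 CPM or more in control 3, iNICD 3 and iNICD 5 and at 4790 CPM or less in the other 9, and Xist was under 14 CPM in controls 4 and 6 and in iNICD 4, 5 and 6.

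The nuclear genes of the chain as a whole were close to level between the groups. Of the 98, 96 were high enough to test, Cox8c being listed at 0 in all 12 libraries and Cox7b2, the other one not tested, at a mean of 0.106 CPM in controls. Cox8a was called higher and Ndufa4 was called lower, 2 of 96 genes or 2.08%, where 6.71% of all genes tested were called (limma, Benjamini-Hochberg). Over all genes, 698 were called higher (4.87%) and 264 lower (1.84%). Higher calls were 72.6% of these, and 61.6% with median-of-ratios scaling, 59.7% with quantile normalization and 58.8% with DESeq2. The median log2 fold change of the 96 nuclear genes was -0.00079 with quartiles of -0.07 and 0.09, and 48 were above 0 and 48 below. Over all genes tested the median was 0.05 with quartiles of -0.07 and 0.17. In 85 of the 96 (88.5%) the log2 fold change was under 0.2 in size, against 67.8% of all genes. In this bulk RNA, fewer cells of a type and less RNA per cell cannot be told apart.

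**Figure D1:**
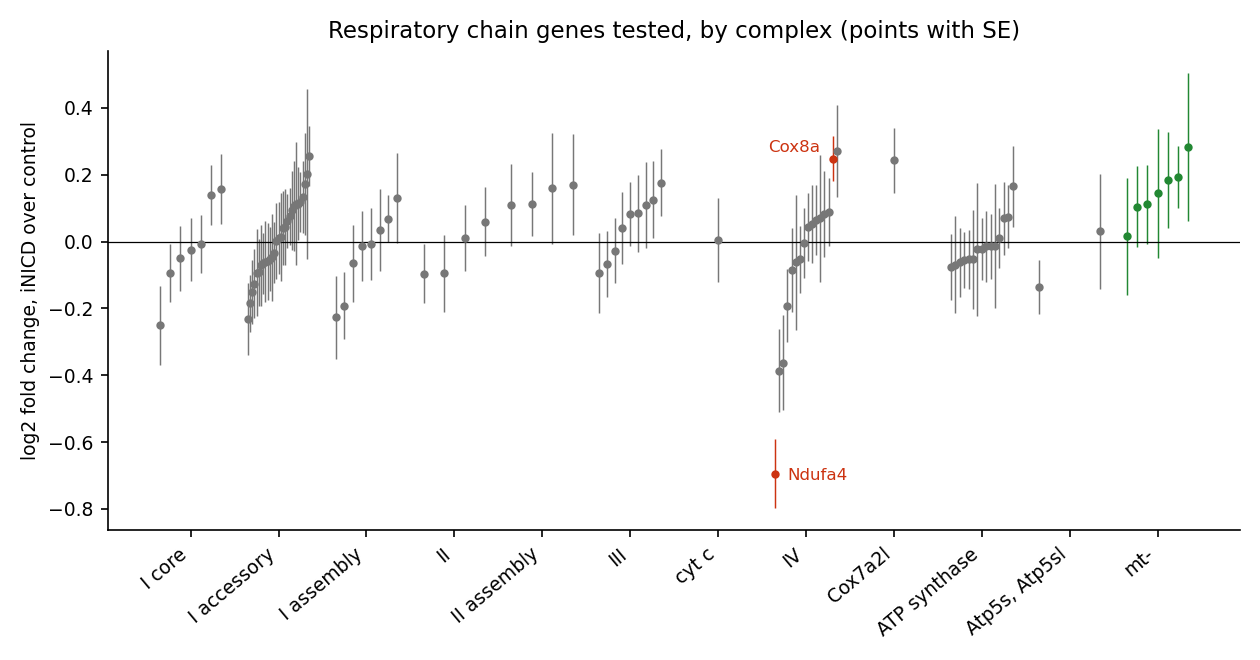
Log2 fold change (iNICD over control) of each of the 103 respiratory chain genes tested, grouped by complex along the horizontal axis, with bars of 1 SE. Red points are the genes called by limma, Ndufa4 at -0.69 and Cox8a at 0.25, and green points are the 7 mitochondrial genes, all above 0 here, while mt-Nd2 and mt-Nd4 fall below 0 without iNICD 5.

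Complex I, the NADH dehydrogenase through which most electrons enter, showed no called gene among its 44 nuclear members. The 7 nuclear core subunits hold the flavin and iron-sulfur centres, and the median of their log2 fold changes was -0.02. The lowest was Ndufs7, which carries the last iron-sulfur cluster before ubiquinone. Ndufs7 was at 249, 278 and 384 CPM (lowest, median and highest) in controls and at 199, 252 and 300 CPM in iNICD. The ranges overlapped, with 3 iNICD libraries below all controls, and the log2 fold change of -0.25 (SE 0.12) did not pass (limma adjusted p = 0.27).

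Among the 29 accessory subunits of complex I, which surround the core and stabilise it, the median log2 fold change was 0.01. Ndufa10, an accessory subunit on the matrix side, gave the smallest adjusted p. It was at 273, 317 and 351 CPM in controls and at 324, 364 and 467 CPM in iNICD. All but 1 of the iNICD libraries lay above every control, and the log2 fold change was 0.26 (SE 0.09, limma adjusted p = 0.11, exact permutation p = 0.013). Ndufb3 had the lowest value of this group, at -0.23 (SE 0.11, limma adjusted p = 0.25). The 8 assembly factors of complex I ranged from -0.23 to 0.13. Ndufaf8, a partner of the assembly factor Ndufaf5, was at -0.23 (SE 0.12), and Ndufaf2, which acts late in assembly, was at -0.19 (SE 0.10). Neither passed, with limma adjusted p of 0.35 and 0.32.

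Complex II, succinate dehydrogenase, is the complex with no mitochondrially encoded subunit. Its 4 subunits ranged only from -0.10 to 0.06. Sdhc, a membrane anchor, was at 299, 331 and 366 CPM in controls and at 261, 310 and 380 CPM in iNICD (log2 fold change -0.10, SE 0.09, limma adjusted p = 0.62). The groups overlapped, with 2 iNICD libraries below all controls and 1 above. The 4 assembly factors of complex II were all above 0, with a median of 0.14, and none was called. Sdhaf3, which helps mature the iron-sulfur subunit, was at 0.17 (SE 0.15), and Sdhaf2, which helps attach the flavin to Sdha, was at 0.11 (SE 0.10), with limma adjusted p of 0.61 and 0.59.

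The 9 complex III genes had a median of 0.08. Uqcrc2, a core protein of the complex, was the highest at 0.18 (SE 0.10, limma adjusted p = 0.38). Its levels were 347, 385 and 445 CPM in controls and 389, 423 and 583 CPM in iNICD, where the highest library, iNICD 4, was above all others, and without it the log2 fold change was 0.10. Cycs, the soluble carrier cytochrome c, was at 15.0 ± 2.43 CPM (control) and 15.1 ± 2.46 CPM (iNICD; SD, n = 6 each; limma adjusted p = 0.99). Part of the Cycs sequence is shared with other genes, as described below. Cox7a2l, which joins complexes III and IV into supercomplexes, was at 72.8, 81.2 and 95.5 CPM in controls and at 80.3, 94.9 and 120 CPM in iNICD. The log2 fold change of Cox7a2l was 0.24 (SE 0.10, limma adjusted p = 0.17), and 3 iNICD libraries lay above all controls.

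The genes of ATP synthase lay close to level. Its 15 subunit genes ranged from -0.08 to 0.17, with 4 above 0 and 11 below, and the median was -0.02. Levels per kilobase were taken over the longest annotated coding transcript of each gene, whichever transcript was in use. On that scale Atp5b and Atp5a1 had the highest control levels of the nuclear genes, at 2370 and 1526 CPM per kb. They encode the catalytic and the structural subunit of the rotary head. Atp5b was at 0.07 (SE 0.10) and Atp5a1 at 0.01 (SE 0.09) on the log2 fold change scale. Atp5h, in the peripheral stalk, had the largest difference of the subunits, 0.17 (SE 0.12, limma adjusted p = 0.52). Atp5sl, which shares the name but is known as an assembly factor of complex I, was at -0.14 (SE 0.08, limma adjusted p = 0.40).

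Complex IV, cytochrome c oxidase, held both called genes, 2 of its 16 tested or 12.5%, where 6.71% of all genes tested were called. It also held the 3 lowest fold changes among the nuclear genes. Of its 16 tested genes 8 were above 0 and 8 below, and the range was -0.69 to 0.27. The gene at the bottom was Ndufa4, which was first named as a complex I subunit and is now counted as a subunit of complex IV. Ndufa4 (ENSMUSG00000029632) lies on the minus strand at chr6:11900292-11907497 of GRCm38 in GENCODE M21. It was at 299, 351, 334, 454, 333 and 381 CPM in controls 1 to 6 and at 206, 214, 204, 279, 202 and 222 CPM in iNICD 1 to 6.

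The Ndufa4 groups did not overlap, as was the case for 4.59% of all genes tested (1.13% in the lower direction) and for no other nuclear gene of the chain except Cox8a. The mean was 359 ± 53.5 CPM (control) and 221 ± 29.5 CPM (iNICD; SD, n = 6 each), a log2 fold change of -0.69 (SE 0.10, limma adjusted p = 0.00063, exact permutation p = 0.0022, the smallest that 6 against 6 can give). Each of the 28 alternative settings called it as well, with log2 fold changes of -0.76 to -0.61 and adjusted p of at most 0.016. As a share of the summed CPM of the nuclear genes of the chain, Ndufa4 made up 1.17% to 1.51% in controls and 0.759% to 0.837% in iNICD. Its ratio to Cox4i1, a constitutive subunit of the same complex, was 0.370 to 0.438 in controls and 0.229 to 0.267 in iNICD. Both measures are free of library scaling and separated the groups. The related gene Ndufa4l2, which the name rule left out, was at 7.40 ± 0.977 CPM (control) and 8.06 ± 1.35 CPM (iNICD; SD, n = 6 each; limma adjusted p = 0.72).

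Cox8a, the ubiquitous isoform of subunit 8, was the gene called higher. Cox8a was at 188, 199, 169, 195, 185 and 161 CPM in controls 1 to 6 and at 221, 218, 215, 228, 201 and 219 CPM in iNICD 1 to 6. Every iNICD library was above every control, which held for 3.46% of all genes tested. The log2 fold change was 0.25 (SE 0.07, limma adjusted p = 0.038, exact permutation p = 0.0022). The call was lost with any of 9 libraries left out (adjusted p = 0.061 to 0.085). It held without control 2, control 4 or iNICD 5, and it held in 12 of all 28 alternatives. With median-of-ratios scaling, edgeR and DESeq2 the log2 fold change of Cox8a was 0.19, with adjusted p of 0.16, 0.16 and 0.10.

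**Figure D2:**
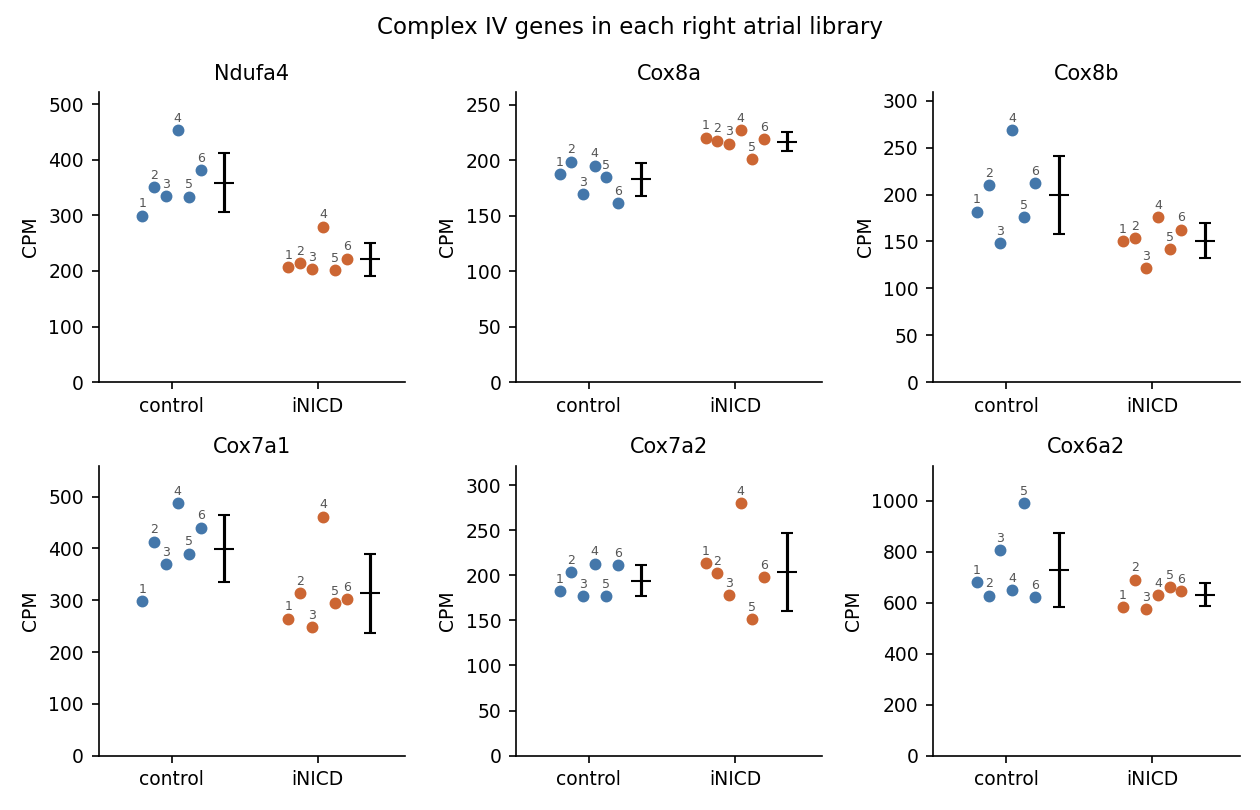
CPM of 6 complex IV genes in each library, with the library number beside each point and the mean with SD at the right of each group. Ndufa4 and Cox8a separate the groups in opposite directions, and iNICD 4 is the highest iNICD library for Ndufa4, Cox8a, Cox8b, Cox7a1 and Cox7a2.

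Complex IV has muscle and ubiquitous isoforms of several subunits, and the muscle forms of 3 of them lay lower in iNICD without passing the test as single genes. Cox8b, the muscle form of subunit 8 in the mouse, was at 148, 196 and 269 CPM in controls and at 121, 152 and 176 CPM in iNICD (log2 fold change -0.39, SE 0.13, limma adjusted p = 0.085). Cox7a1, the muscle form of subunit 7a, was at 298, 401 and 487 CPM in controls and at 247, 298 and 461 CPM in iNICD (log2 fold change -0.36, SE 0.14, limma adjusted p = 0.17). Cox6a2, the muscle form of subunit 6a, was at 622, 666 and 991 CPM in controls and at 576, 638 and 691 CPM in iNICD (log2 fold change -0.19, SE 0.11, limma adjusted p = 0.37). The groups overlapped for each of the 3 genes. Cox8b passed without control 3, at -0.47 (adjusted p = 0.029), and Cox7a1 passed without iNICD 4, at -0.48 (adjusted p = 0.020). Their ubiquitous partners Cox7a2 and Cox6a1 were at 0.05 (SE 0.12) and 0.09 (SE 0.10), neither called. Cox4i2, the isoform of subunit 4 known from lung and from oxygen-regulated expression, was at 0.27 (SE 0.14, limma adjusted p = 0.31) and Cox4i1 at -0.00 (SE 0.11, limma adjusted p = 0.99).

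Per kilobase, the muscle forms were the higher ones in control atria. Cox6a2 was at 1074 and Cox6a1 at 170 CPM per kb. Cox7a1 was at 824 and Cox7a2 at 294 CPM per kb, and Cox8b was at 554 and Cox8a at 333 CPM per kb. Subunit 4 was the reverse case, with Cox4i1 at 1183 and Cox4i2 at 6.81 CPM per kb.

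The balance within an isoform pair can be read inside each library, without any scaling between libraries, as the ratio of the CPM of its genes (not corrected for length). For the 4 pairs, mean log2 ratios were set against all relabellings of the libraries (exact permutation test, two-sided), with p adjusted by Benjamini-Hochberg over the 4. The Cox8b/Cox8a ratio was 0.874, 1.01 and 1.38 (lowest, median and highest) in controls and 0.564, 0.705 and 0.773 in iNICD, so the groups did not overlap. The mean ratio went from 1.09 ± 0.206 to 0.695 ± 0.0718 (SD, n = 6 each), a difference of -0.63 on the log2 scale (exact permutation p = 0.0022, adjusted p = 0.0087). The Cox7a1/Cox7a2 ratio was 1.63, 2.09 and 2.28 in controls and 1.24, 1.54 and 1.94 in iNICD, with 4 iNICD libraries below all controls. Its difference was -0.41 on the log2 scale (exact permutation p = 0.0065, adjusted p = 0.013).

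The other 2 pairs did not pass. The Cox6a2/Cox6a1 ratio was 7.64 ± 1.49 in controls and 6.21 ± 0.556 in iNICD (SD, n = 6 per group), a log2 difference of -0.28 (exact permutation p = 0.061, adjusted p = 0.081). It passed without control 2 (-0.32, adjusted p = 0.043) or control 4 (-0.37, adjusted p = 0.017). The Cox4i2/Cox4i1 ratio was 0.0055 ± 0.0010 in controls and 0.0068 ± 0.0012 in iNICD (SD, n = 6 per group), a log2 difference of 0.28 (exact permutation p = 0.091, adjusted p = 0.091). It passed without control 2 (0.35, adjusted p = 0.043) or iNICD 4 (0.36, adjusted p = 0.040).

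**Figure D3:**
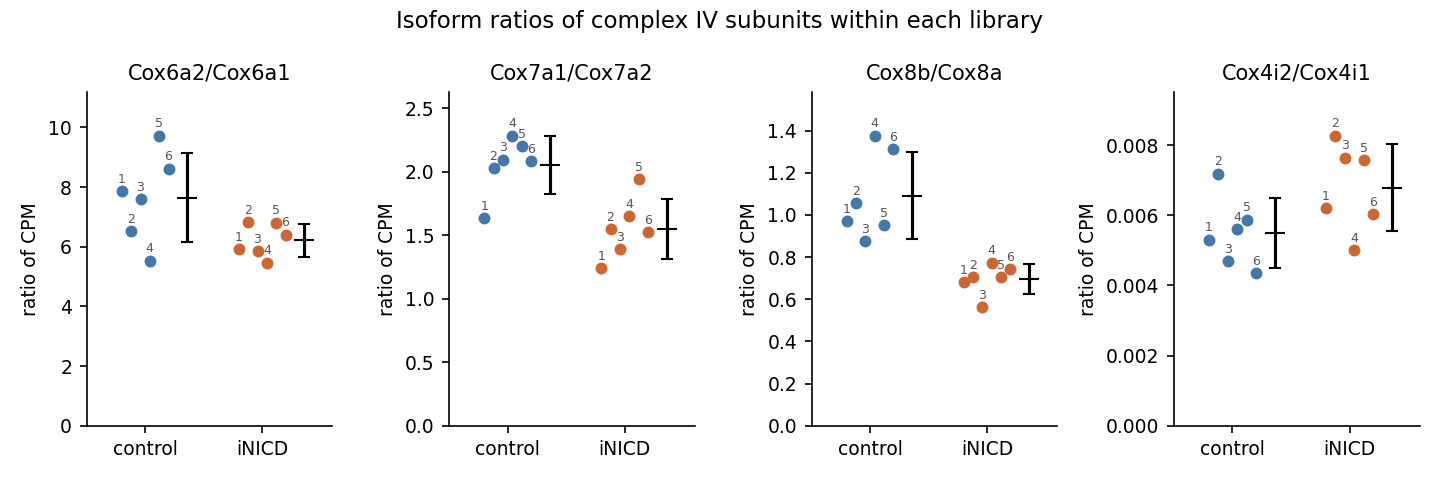
Ratio of CPM of the 2 isoforms of 4 complex IV subunits in each library, with the library number beside each point and the mean with SD at the right of each group. The Cox8b/Cox8a ratio is at most 0.773 in every iNICD library and at 0.874 or more in every control, while the other 3 pairs overlap.

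Marker genes of the cell types in the tissue were summed in each library. The summed level of 10 cardiomyocyte markers was 155991 to 161563 CPM in controls and 134218 to 150599 CPM in iNICD, without overlap, although 0 of the 10 were called. Most of the sum was Ttn and Myh6, at means of 90177 and 42302 CPM in controls. Of the 10 genes only Ttn separated the groups by itself (-0.19, SE 0.07, limma adjusted p = 0.12). Actc1, Mb, Tnnc1, Tnnt2 and Tnni3 were at -0.44, -0.37, -0.32, -0.28 and -0.27, with limma adjusted p of at least 0.053. Myh6, Pln and Actn2 were at -0.13, -0.12 and -0.05. Ryr2 alone lay in the other direction (0.11, SE 0.08, limma adjusted p = 0.56). The 6 macrophage markers summed to 274 to 359 CPM in controls and 348 to 512 CPM in iNICD, and 4 of the 6 were called higher, among them Adgre1 at 0.78 (SE 0.13, limma adjusted p = 0.0014). The 6 fibroblast markers summed to 1570 to 1981 CPM in controls and 1710 to 2465 CPM in iNICD, with Tcf21 called higher. Endothelial markers overlapped (736 to 963 and 712 to 860 CPM, 0 of 6 called). Cox8b and Cox7a1 are also abundant in brown fat, and the 6 adipocyte markers summed to 38.0 to 154 CPM in controls and 40.6 to 309 CPM in iNICD, with 0 called. Of 6 skeletal muscle markers, 2 were high enough to test and neither was called (9.71 to 14.6 CPM in controls and 9.67 to 21.98 CPM in iNICD). Of 4 ventricular markers 3 were tested and none was called (532 to 2927 CPM in controls and 513 to 2476 CPM in iNICD). Red blood cell markers summed to 66.4 to 350.1 CPM in controls and 33.5 to 134 CPM in iNICD, with 0 of 5 called. No marker of any list was at 0 in all libraries. The part of the cardiomyocyte sum and of the called macrophage and fibroblast markers in the complex IV results was not tested.

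The promoters of the 2 called genes and of Cox8b, the partner of Cox8a that was not called, are shown for comparison, each as 250 bases before and 50 bases after the start annotated by RefSeq (GRCm38.p6), on the strand of the gene. A window of this kind was found for 79 of the 98 nuclear genes, 84 windows in all. Ndufa4 is at chr6:11907401-11907700, Cox8a at chr19:7217567-7217866 and Cox8b at chr7:140900397-140900696, all on the minus strand. Capitals mark CCGGAAG (a core of ETS-family sites such as that of GABP) read on either strand, CAGCTG (an E-box) and TATAAA.
Ndufa4: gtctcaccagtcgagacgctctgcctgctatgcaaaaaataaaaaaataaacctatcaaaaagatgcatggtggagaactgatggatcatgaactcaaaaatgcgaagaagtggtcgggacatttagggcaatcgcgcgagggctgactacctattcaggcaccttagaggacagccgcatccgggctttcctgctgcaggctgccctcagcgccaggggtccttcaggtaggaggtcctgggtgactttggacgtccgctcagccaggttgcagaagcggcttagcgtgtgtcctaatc
Cox8a: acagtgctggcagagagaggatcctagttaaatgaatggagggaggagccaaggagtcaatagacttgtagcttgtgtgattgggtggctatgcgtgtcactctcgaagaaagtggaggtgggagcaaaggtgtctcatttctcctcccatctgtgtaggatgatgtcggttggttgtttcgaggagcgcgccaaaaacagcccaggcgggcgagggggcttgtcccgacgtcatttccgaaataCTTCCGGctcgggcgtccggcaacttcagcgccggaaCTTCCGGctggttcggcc
Cox8b: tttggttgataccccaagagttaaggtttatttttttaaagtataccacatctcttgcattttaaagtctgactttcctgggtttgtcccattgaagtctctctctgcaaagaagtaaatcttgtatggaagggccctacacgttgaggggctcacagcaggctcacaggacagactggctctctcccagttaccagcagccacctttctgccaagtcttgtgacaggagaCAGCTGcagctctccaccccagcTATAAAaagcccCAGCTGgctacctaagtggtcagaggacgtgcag

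The Cox8a window holds 2 copies of CCGGAAG, both as the reverse complement CTTCCGG. The Cox8b window holds 2 CAGCTG and 1 TATAAA, and the Ndufa4 window holds none of the 3. Over all promoter windows of the same length, read on both strands, CCGGAAG occurred in 21 of the 84 windows of the chain and in 8.86% of all 32851. The corresponding shares were 8.33% and 0.971% for the palindromic consensus site of NRF1, and 9.52% and 1.40% for AAGATGGCG, a YY1 motif. TCAAGGTCA, an extended site of the estrogen-related receptors, was in 2.38% and 0.423%. CAGCTG was in 7.14% and 16.3%, and TATAAA in 10.7% and 13.6%. TGGGAA, the core recognised by RBPJ, the DNA-binding partner of Notch, was in 19.0% of the windows of the chain and 25.6% of all. It was in none of the 3 windows shown. These are counts of letters, not of bound sites.

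The mitochondrial genome was represented by 7 of its 13 protein genes. These 7 were tested and 0 were called by limma, with 0 at an unadjusted p under 0.05, and edgeR and DESeq2, which called 7.16% and 9.94% of all genes, also called 0 of the 7. Their log2 fold changes were all above 0, from 0.02 to 0.28 with a median of 0.14, although mt-Nd2 was below 0 with median-of-ratios scaling (-0.04) and quantile normalization (-0.03), and without iNICD 5 mt-Nd2 was at -0.14, mt-Nd4 at -0.00097 and the median at 0.02. mt-Co1, the catalytic subunit of complex IV with the haem and copper centres, had the highest control level per kilobase of all 111 genes, at 6824 CPM per kb. It was at 9048, 11010 and 11145 CPM in controls and at 10640, 11626 and 14746 CPM in iNICD. The ranges overlapped, with 4 iNICD libraries above all controls, and the log2 fold change was 0.19 (SE 0.09, limma adjusted p = 0.28, exact permutation p = 0.054), or 0.13 without iNICD 5.

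The other mitochondrial genes overlapped between the groups. mt-Cytb, the cytochrome b of complex III, was at 1522, 1942 and 2471 CPM in controls and at 1690, 2200 and 3116 CPM in iNICD (log2 fold change 0.18, SE 0.14, limma adjusted p = 0.56). The remaining 5 encode membrane subunits of complex I. mt-Nd1 was at 1257, 1473 and 1684 CPM in controls and at 1194, 1564 and 2146 CPM in iNICD (0.11, SE 0.12, limma adjusted p = 0.69). mt-Nd5 had the largest log2 fold change, 0.28 (SE 0.22, limma adjusted p = 0.56), with controls at 383 to 624 CPM and iNICD at 456 to 1274 CPM. The high end was iNICD 5, and without it the log2 fold change of mt-Nd5 was 0.08. mt-Nd2 averaged 278 ± 32.3 CPM in controls and 292 ± 99.8 CPM in iNICD libraries, mt-Nd4 at 455 ± 104 and 510 ± 162 CPM, and mt-Nd6, the light-strand gene, at 65.4 ± 8.98 and 70.8 ± 13.9 CPM (SD, n = 6 each). Their log2 fold changes were 0.02 (SE 0.18), 0.14 (SE 0.19) and 0.10 (SE 0.12), with limma adjusted p of 0.98, 0.77 and 0.72.

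Together the 7 took 1.29% to 1.67% of all reads in controls and 1.48% to 2.27% in iNICD. The nuclear genes of the chain took 2.56% to 3.00% and 2.43% to 3.66%. The ratio of summed mitochondrial to summed nuclear CPM was 0.451, 0.552 and 0.596 in controls and 0.505, 0.607 and 0.869 in iNICD. The highest ratio was that of iNICD 5, and the ranges overlapped. The mean log2 ratio was 0.19 higher in iNICD, and 0.09 higher without iNICD 5. These ratios leave out the genes listed at 0 and so do not measure the whole mitochondrial genome. They rest mostly on mt-Co1, with a control median of 11010 CPM beside a control median of 15563 CPM for the mitochondrial sum. Its level is itself uncertain because part of its sequence is shared with other genes, as described below.

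The other 6 mitochondrial genes, mt-Co2, mt-Co3, mt-Atp6, mt-Atp8, mt-Nd3 and mt-Nd4l, were listed at exactly 0 in all 12 libraries. These genes encode core subunits that no respiring cell does without, and their neighbours mt-Co1 and mt-Cytb were at 9048 CPM and 1522 CPM or more. The values are therefore given only as listed, with no statement about expression. For 5 of the 6 nearly the whole transcript matched an annotated pseudogene on chromosome 1. The share of 50-base windows found in another gene's transcript (GENCODE M21) was 100% for mt-Co2, 99.9% for mt-Co3, 99.5% for mt-Atp6, 98.8% for mt-Nd4l and 97.99% for mt-Nd3. These copies lie side by side on the minus strand at chr1:24612407-24615565, flanked by copies of parts of mt-Nd4 and mt-Co1. Bases 301 to 360 of mt-Co2, at chrM:7313-7372, and of its copy Gm28661, at chr1:24615206-24615265, show the match.
mt-Co2: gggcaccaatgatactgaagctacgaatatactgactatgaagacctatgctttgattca
Gm28661: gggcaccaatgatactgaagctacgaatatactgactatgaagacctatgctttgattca

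All 60 letters shown were the same, and over the 681 aligned bases there were 0 mismatches. The copies were low as well, which does not show whether reads of the 6 genes were present. Gm28438, the copy of mt-Nd3, was at 0.944 to 8.03 CPM, and the other 6 copies were at 0 to 0.264 CPM. mt-Atp8 shared 0% of its windows with another annotated gene and was also listed at 0. The search covered annotated transcripts only. On chromosome 1, Gm10925, the copy of mt-Atp6, ends at 24614651 and Gm28661 starts at 24614885. The stretch between them holds none of the listed copies, and its genomic sequence was not compared with mt-Atp8. Among the genes with reads, mt-Nd4 shared 62.2% and mt-Co1 51.1% of windows, mt-Nd2 8.19%, mt-Nd5 7.61%, and mt-Cytb, mt-Nd1 and mt-Nd6 0%. How reads with several alignments were treated is not given in the sources used here, and its part in the zeros was not tested. The levels of mt-Co1 and mt-Nd4 are uncertain, since more than 50% of their windows are shared.

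**Figure D4:**
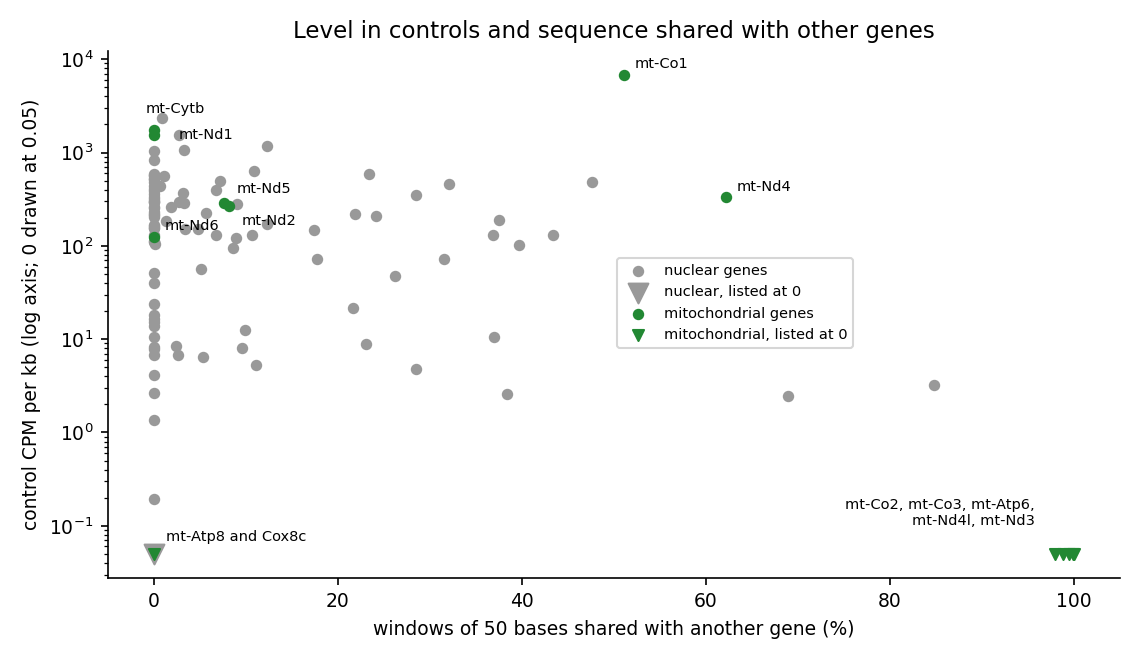
Control level in CPM per kb (log axis, with genes listed at 0 drawn as triangles at 0.05) against the percentage of 50-base windows shared with another gene's transcript, for the 98 nuclear (grey) and 13 mitochondrial (green) genes. The 5 mitochondrial genes with 97.99% or more of their windows shared all lie at 0, and mt-Atp8 lies at 0 with none shared with an annotated transcript.

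Nuclear genes of the chain were touched less by shared sequence. Ndufa4, Cox8a, Cox8b, Cox7a1 and Cox7a2 shared 0% of their windows, as did 50 of the 111 genes. Only Atp5l (84.8%) and Sdhaf1 (69.0%) among the nuclear genes shared 50% or more. Both were low, at 3.24 and 2.47 CPM per kb in controls, and their levels are uncertain for that reason. A share under 50% does not make a level certain. Atp5g2 (38.3%), Ndufb4 (37.0%), Cycs (28.5%) and Cox7c (23.0%) were also low, with control medians of 1.96, 10.3, 15.2 and 6.30 CPM. Atp5o, with 47.6% shared, had a control median of 396 CPM. Whether shared sequence lowered any of these levels was not tested. Over the 98 nuclear genes Spearman's rho between the share and the control level was -0.11, a description across genes, which are not independent.

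The level of the whole chain differed between libraries within a group. The nuclear genes took 2.83% ± 0.151 of reads in controls and 2.84% ± 0.430 in iNICD (SD, n = 6 per group). In iNICD 4, 90 of 96 nuclear genes lay above their mean over the 12 libraries, with a median deviation of 0.35 on the log2 scale, and the summed nuclear level was 36631 CPM against 24314 to 30022 CPM in the other 11. In iNICD 3 and control 1, 9 and 12 of the 96 lay above their mean. The deviation of iNICD 4 was shared by the complexes, at 0.36 for complex I core subunits, 0.41 for complex II, 0.43 for complex III, 0.27 for complex IV and 0.35 for ATP synthase. The mitochondrial genes followed another order, with iNICD 5 highest (7 of 7 above their mean, median deviation 0.57) and control 2 and iNICD 2 lowest (0 of 7 each, -0.31 and -0.32). Over the 12 libraries and after removal of the group means, the median Pearson's r between pairs of nuclear genes was 0.56 and between pairs of mitochondrial genes 0.68, while between a nuclear and a mitochondrial gene it was -0.15. These values describe genes that share libraries and depth and carry no test.

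**Figure D5:**
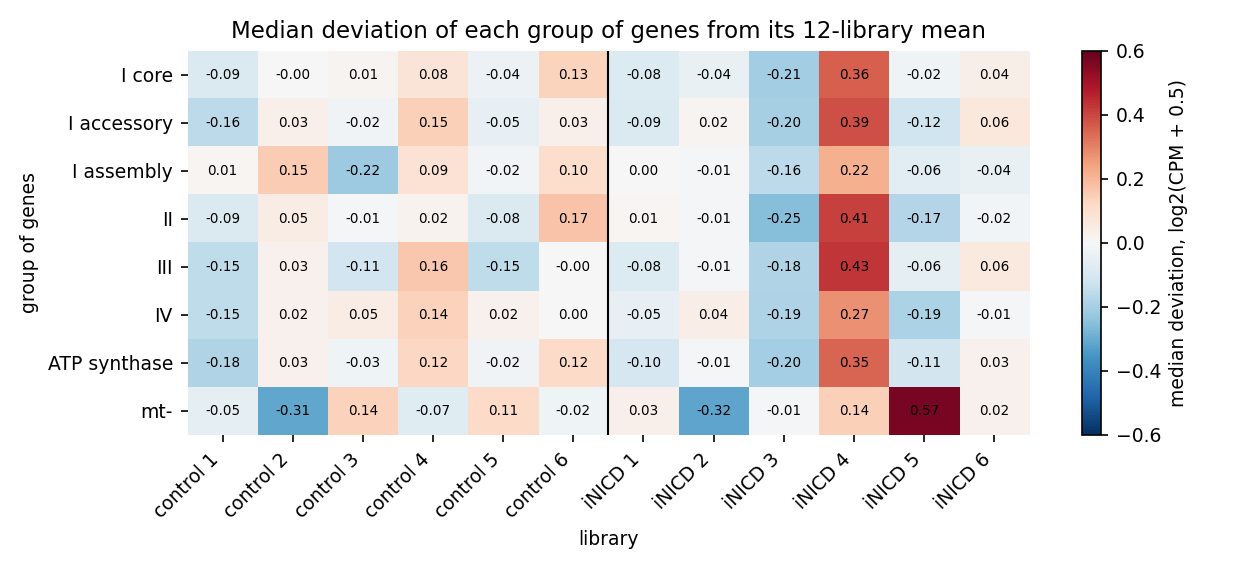
Median deviation of each group of genes from its mean over the 12 libraries, on the log2(CPM + 0.5) scale, with libraries along the horizontal axis and the groups of genes along the vertical axis. The nuclear groups are high together in iNICD 4 and low together in iNICD 3, and the mitochondrial genes are high in iNICD 5 at 0.57.

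The genes that regulate and build the chain were counted from lists of their own, each to be read against the 4.87% of all genes called higher and the 1.84% called lower. Of 13 regulators of mitochondrial biogenesis, 1 was called higher and 0 lower (median log2 fold change -0.03), which is near the share over all genes. It was Ppargc1b, a coactivator related to PGC-1α, at 16.9, 19.4 and 28.2 CPM in controls and at 27.6, 30.5 and 37.9 CPM in iNICD (log2 fold change 0.61, SE 0.11, limma adjusted p = 0.0036). The ranges overlapped only through control 3, and the call held in all 28 alternatives. Ppargc1a, which encodes PGC-1α itself, was at 62.9, 99.5 and 108 CPM in controls and at 53.2, 68.4 and 79.2 CPM in iNICD (-0.44, SE 0.13, limma adjusted p = 0.054). The transcription factors Nrf1, Gabpa and Esrra were at 0.02, 0.08 and -0.03, with adjusted p of at least 0.65.

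Of 16 tested genes of mitochondrial DNA transcription and maintenance, 1 was called higher and 0 lower (median 0.02), again near the 4.87% over all genes. Tfam, which packages mitochondrial DNA and starts its transcription, was at 26.6, 30.8 and 37.0 CPM in controls and at 37.7, 41.6 and 49.6 CPM in iNICD. The groups did not overlap, the log2 fold change was 0.44 (SE 0.09, limma adjusted p = 0.010, exact permutation p = 0.0022), and the call held in all 28 alternatives. Of 15 genes of mitochondrial RNA processing, Grsf1, a protein of mitochondrial RNA granules, was at 0.24 (SE 0.07) and Fastk, the founding gene of the FASTK family, at -0.23 (SE 0.07). Each passed narrowly, at limma adjusted p of 0.0498 and 0.04996, and in only 10 of 28 alternatives.

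None of 33 assembly factors outside the name rule and none of 75 mitochondrial ribosomal protein genes were called by limma, where 6.71% of all genes were. At an unadjusted p under 0.05 were 1 and 7 of them, against 2693 of all 14336, and their medians were 0.03 and 0.00. Of 20 genes that follow mitochondrial content, 0 were called higher and 2 lower (median -0.03), where 4.87% and 1.84% of all genes were. Slc25a4, the ADP/ATP carrier of heart and muscle, was at 2982, 3652 and 3695 CPM in controls and at 2268, 2557 and 3504 CPM in iNICD (log2 fold change -0.40, SE 0.10, limma adjusted p = 0.023). The groups overlapped through iNICD 4. The Slc25a4 call was lost without control 2, control 3, iNICD 1 or iNICD 3 (adjusted p = 0.052 to 0.064). It was also lost with quantile normalization (adjusted p = 0.11) and without control 3, iNICD 3 and iNICD 5 together (-0.31, adjusted p = 0.19). Mfn2, which fuses outer mitochondrial membranes, was at 622, 656 and 682 CPM in controls and at 458, 520 and 593 CPM in iNICD, without overlap (-0.31, SE 0.07, limma adjusted p = 0.014). The Mfn2 call held in all 28 alternatives.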

How the data were processed

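Right atrial RNA of 6 control and 6 iNICD libraries was analysed from the CPM that the authors deposited, 1 column per library, in 41264 rows. After 574 duplicate rows, identical in value, had been dropped, 40690 gene identifiers were left. The percent GC column deposited with the gene annotation was not used. Per the submitters' processing notes, the tools were STAR 2.4.0b and featureCounts. Not given in the sources used here were the genome build, the annotation, the strand setting and how multiply aligned reads were handled.

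CPM above 0 were whole multiples of the smallest value in each library (100% within 0.001 reads), so whole reads were recovered for edgeR and DESeq2 as alternatives. Depth was 12015650 to 22716190 reads, with 21323 to 22750 genes above 0. Replicates differed by more than counting noise (chi-square per degree of freedom 9.87 to 93.0, Pearson's r 0.960 to 0.991).

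The main test was limma (trend, robust, no replicate block) on log2(CPM + 0.5) over the 14336 genes that reached 1 CPM in 6 or more libraries, with Benjamini-Hochberg adjustment and a threshold of 0.05. The fold change understates that of low genes on this scale. Isoform ratios and single genes had an exact two-sided permutation test with 924 relabellings. The alternatives, 28 in all, were a pseudocount of 0.1 or 2, the filter dropped or replaced by a mean of 5 CPM, 4 other scalings, no robust estimation, array weights, a replicate block, covariates, edgeR, DESeq2, 3 libraries left out together and every single library left out once.

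The members and lists were chosen with earlier results of these data known. Named genes were the mt- genes, the called members, in each role group the members with the smallest adjusted p and the largest change, the isoform pairs, members without overlap, up to 4 called genes per pathway list and the ends of ranges. Nrf1, Gabpa, Esrra, Ppargc1a, Atp5a1, Adgre1, Tcf21 and the cardiomyocyte markers were named after their values were seen. So were Atp5l, Sdhaf1, Atp5g2, Ndufb4, Cox7c and Atp5o. Positions and transcripts came from GENCODE M21 (GRCm38), matched by identifier for all 111 genes, and promoters from RefSeq (GRCm38.p6). The fits were tested on simulated data. R 4.3.3, limma 3.58.1, edgeR 4.0.16, DESeq2 1.42.0 and Python 3.11.15 were used. A result for 1 member is not reported here.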

Additional observations from a re-analysis of the deposited data

Results flagged for a closer look

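For 82 groups of 6 libraries (values of the named genes, sums and ratios), the gap between the most extreme library and its nearest neighbour was compared with the range of the group. In 14 groups the quotient was above Dixon's 95% limit, where chance flags about 1 group in 20. The groups are not independent, since 8 of the 14 single out the same library.

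iNICD 4 stood far above the other 5 iNICD libraries for Cox4i1 (1222 CPM), Cox6a1 (115 CPM), Cox7a1 (461 CPM), Ndufa4 (279 CPM), Sdhaf2 (44.6 CPM), Uqcrc2 (583 CPM) and Slc25a4 (3504 CPM), and for the summed nuclear level of the chain (36631 CPM). Ndufa4 in iNICD 4 was still below every control.

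Control 3 was far from the other controls for Ndufs7 (highest, 384 CPM), Ppargc1b (highest, 28.2 CPM) and Ndufaf2 (lowest, 10.5 CPM, in a group that spanned little more than 1 CPM). iNICD 2 was the highest for Cox4i2 (7.49 CPM) and iNICD 5 for mt-Nd5 (1274 CPM). Control 1 had the lowest log2 ratio of Cox7a1 to Cox7a2 among controls (0.71).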

How the results depend on the processing

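Ndufa4, Tfam, Ppargc1b and Mfn2 kept their direction and their call under all 28 alternatives. The median log2 fold change stayed between -0.06 and 0.09 for the nuclear genes and between 0.02 and 0.22 for the mitochondrial genes, and no mitochondrial gene was called under any alternative. Over the 34 named genes, 855 of 952 alternative values kept direction and side of the threshold.

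Nuclear members called higher (1 in the main fit) were 0 with median-of-ratios scaling, quantile normalization, no filter, the replicate block, edgeR, DESeq2 and without control 3, iNICD 3 and iNICD 5 together, 2 with array weights, and 0 to 1 with single libraries left out. Nuclear members called lower (1) were 2 with array weights and DESeq2, 3 with the replicate block and with the Xist covariate, and 1 to 2 with single libraries left out. Genes called higher over all genes (698) were 378 without those 3 libraries, and 458 to 782 with single libraries left out. Genes called lower (264) were 407 with quantile normalization, 552 with array weights, 587 with DESeq2 and 145 without those 3 libraries, and 186 to 432 with single libraries left out (432 without control 4). The cause was not tested.

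Genes near 0 changed sign. Cox4i1 was at 0.00029 with library totals without mt- rows, 0.0031 without Gm42418 and Rn7sk, 0.034 with array weights, 0.022 with the Gm42418 and Rn7sk covariate, 0.11 without control 3, iNICD 3 and iNICD 5, and -0.093 to 0.044 with single libraries left out. Cox7a2 was at -0.0026 with median-of-ratios scaling and at -0.044 to 0.13 with single libraries left out. Cycs was at -0.048 with median-of-ratios scaling, -0.050 with edgeR, -0.049 with DESeq2, -0.057 with quantile normalization, -0.032 with the Xist covariate, and -0.064 to 0.060 with single libraries left out. mt-Nd2 was at -0.039 with median-of-ratios scaling, -0.025 with quantile normalization, -0.034 with the Gm42418 and Rn7sk covariate, -0.0051 with the Xist covariate, -0.29 without control 3, iNICD 3 and iNICD 5, and -0.14 to 0.11 with single libraries left out. mt-Nd4 was at -0.00097 without iNICD 5 and at most 0.25 with other single libraries left out.

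With single libraries left out the log2 ratio Cox6a2/Cox6a1 was -0.37 to -0.21 and the log2 ratio Cox4i2/Cox4i1 0.22 to 0.36. Whether the replicate numbers pair the samples is not given in the labels and is not settled by the values. Libraries of the same number deviated together with r of -0.01 to 0.32, and numbers 1, 4 and 6 correlated best with their own. With the replicate block, 794 genes were called higher and 297 lower, and Cox8b and Cox7a1 were called (limma adjusted p = 0.0071 and 0.026). The log2 ratio Cox8b/Cox8a (-0.63) and the log2 ratio Cox7a1/Cox7a2 (-0.41) had an exact sign-flip p of 0.031 in the block, the smallest that 6 pairs can give, and an adjusted p of 0.062. At the lowest depth a gene at the limit of 1 CPM rests on 12 reads, which limits low genes such as Cox6b2 and Atp5l.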
